A study of Mus musculus with 26 samples.

Results

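The miR-379 to miR-410 run is a series of miRNA hairpins on mouse chromosome 12, in the imprinted Dlk1-Dio3 domain, and includes the dendritic miRNA miR-134. A list of 57 mature miRNAs of the run was looked up by name in a table of 1915 mature miRNAs, and all 57 had reads, among 1389 entries with reads. The 57 came from 33 hairpins, of which 24 gave both arms to the list and 9 gave 1 arm. Of the 57, 53 passed a filter on low counts and were tested. The 4 that did not were miR-758-5p (10 reads in all libraries together), miR-539-3p (18 reads), miR-381-5p (145 reads) and miR-544-3p (163 reads).

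Small RNA was sequenced from the CA1 field of the hippocampus in 26 libraries of 3 groups. The first was 9 libraries of wild type littermates given vehicle. The second was 7 libraries of CamkdeltaC transgenic mice given vehicle, which overexpress the delta C form of calcium/calmodulin-dependent kinase II and serve as a model of heart failure. The third was 10 libraries of the same transgenic line given Vorinostat (SAHA), an inhibitor of histone deacetylases, in the drinking water. Treatment began at 2 months of age and lasted 4 weeks, so mice were 3 months old at the end; both sexes were used and transgenic mice were assigned to vehicle or drug at random. Whether every library came from a different animal is not stated in the labels, and p-values therefore reflect only how much libraries of a group varied.

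miRNAs of the run are processed from long non-coding transcripts that are expressed from the maternal chromosome. A hairpin is cut to a duplex whose 5p or 3p strand is loaded into an Argonaute protein, and the bases after the first one, the seed, largely set which mRNAs it pairs with. In neurons the run is known as an activity-dependent group induced by the transcription factor Mef2. Its member miR-134-5p restrains the size of dendritic spines through the kinase Limk1, and miR-134, miR-329 and miR-381 are needed for activity-dependent growth of dendrites.

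The hairpins lie on the + strand of chr12:109709060-109743795 (GRCm38), over 34.736 kb. The run is often named after its host gene Mirg. In the GENCODE M21 annotation, Mirg spans positions 109729764 to 109749460 of chromosome 12, and 21 of the 33 hairpins lie upstream of it as annotated. Of the other 12, 4 lie within a Mirg exon, 4 within an intron and 4 across an exon boundary. Mature sequences were found in RefSeq (GRCm38.p6) for 53 of the 57. Those without an entry were miR-376c-3p, miR-487b-3p, miR-539-3p and miR-485-5p.

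The sequences below are written 5′ to 3′ with the seed (bases 2 to 8) in capitals. The first set holds the 6 most abundant miRNAs of the run, which carried most of its reads and take part in most results below.
mmu-miR-381-3p: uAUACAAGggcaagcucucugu
mmu-miR-379-5p: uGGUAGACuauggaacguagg
mmu-miR-541-5p: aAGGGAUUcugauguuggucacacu
mmu-miR-543-3p: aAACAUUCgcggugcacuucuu
mmu-miR-409-3p: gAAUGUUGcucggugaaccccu
mmu-miR-411-5p: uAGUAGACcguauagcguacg
The second set holds members known from neuronal work and the last miRNA of the run.
mmu-miR-134-5p: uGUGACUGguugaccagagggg
mmu-miR-485-3p: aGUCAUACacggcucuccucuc
mmu-miR-329-3p: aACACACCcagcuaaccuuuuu
mmu-miR-495-3p: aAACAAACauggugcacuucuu
mmu-miR-410-3p: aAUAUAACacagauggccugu
The third set holds miRNAs whose seeds are equal to or 1 base apart from another of the run.
mmu-miR-379-3p: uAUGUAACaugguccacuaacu
mmu-miR-411-3p: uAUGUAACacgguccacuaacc
mmu-miR-376a-3p: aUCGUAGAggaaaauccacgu
mmu-miR-376b-3p: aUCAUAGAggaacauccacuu
mmu-miR-300-3p: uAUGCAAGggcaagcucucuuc
mmu-miR-154-3p: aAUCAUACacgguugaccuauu
mmu-miR-369-3p: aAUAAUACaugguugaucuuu

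The seeds of the run were almost all different. The 53 sequences held 52 distinct seeds, and the 1 shared seed was that of miR-379-3p and miR-411-3p, AUGUAAC. Several pairs were 1 base apart in the seed, with positions counted from 1 at the 5′ end of the mature miRNA. From miR-379-5p to miR-411-5p the change was G2A, and from miR-376a-3p to miR-376b-3p it was G4A. From miR-300-3p to miR-381-3p it was also G4A, and from miR-154-3p to miR-369-3p it was C4A. Each of these pairs also differs at further bases outside the seed. However, miR-300-3p and miR-381-3p share most of those bases, as do miR-376a-3p and miR-376b-3p. How the counting handled mismatches was not known, and exchange of reads between such pairs was not tested. miR-299a-5p had the same counts as miR-299b-5p in every library, so the 2 entries are 1 measurement.

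Library totals ranged from 585188 to 24767468 counts. Wild type replicate 1 was the shallowest, and the next library, Vorinostat replicate 8, held 3892718. Those 2 libraries stood apart from the rest in many of the results below, so values are also given without them. All 5 neuronal marker miRNAs were detected, and none of the lists for oligodendrocytes, microglia, red cells, endothelium, choroid plexus or thalamus and sensory tissue was at 0 reads as a whole. The column names place the libraries on 2 sequencing lanes, and every group had libraries on both. Wild type replicate 1 was on lane L001 and Vorinostat replicate 8 on lane L002, so values of 1 lane also depend on which of these libraries it held.

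Levels within the run spanned a wide range. Levels are given in CPM, read counts scaled to a common library size by library totals and trimmed-mean factors. Mature miRNAs have nearly equal lengths, so no correction for length was made. Comparisons between miRNAs and between arms are of sequenced reads, and how evenly different sequences were captured was not measured. mmu-miR-381-3p had the highest mean level over the 26 libraries, 7665 CPM, and took 27.2% of the run's reads. It was followed by mmu-miR-379-5p (3847 CPM), mmu-miR-541-5p (3129 CPM), mmu-miR-543-3p (2099 CPM), mmu-miR-409-3p (1615 CPM) and mmu-miR-411-5p (1404 CPM). These 6 together took 71.5% of the run's reads. mmu-miR-300-3p came next at 1125 CPM. In all, 24 tested miRNAs averaged at least 100 CPM and 42 at least 10 CPM, while 11 averaged under 10 CPM. The lowest tested, mmu-miR-487b-5p, averaged 1.29 CPM. Abundant miRNAs lay at both ends and in the middle of the run, beside hairpins whose products were near the detection limit.

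**Figure D1:**
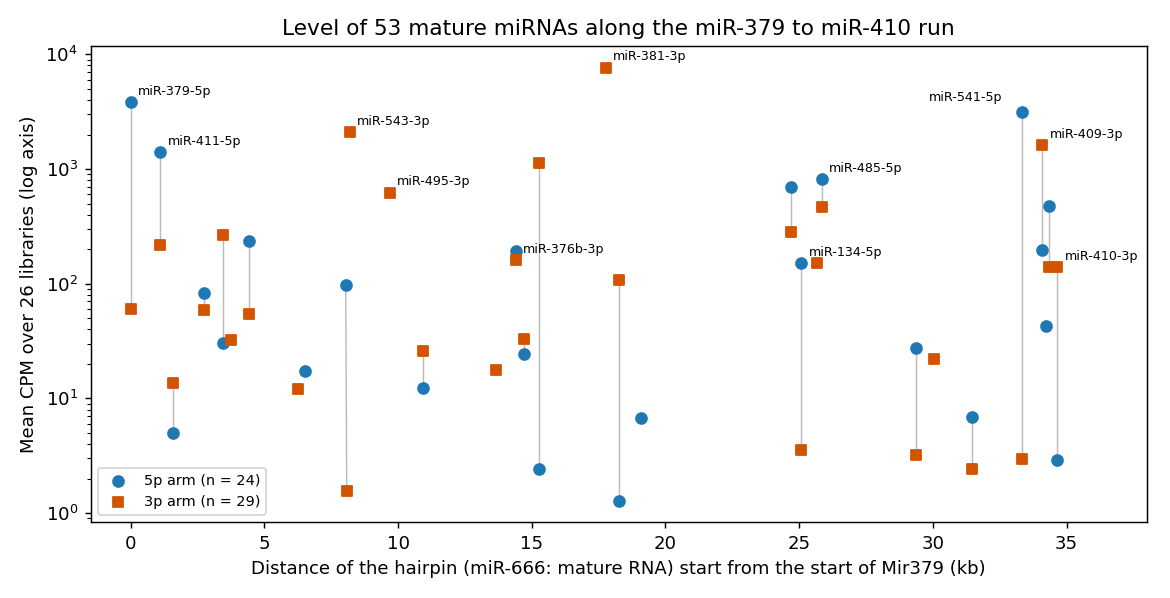
Mean CPM over 26 libraries (log axis) of the 53 tested miRNAs against the position of their hairpin, in kb from the first hairpin, with circles for 5p and squares for 3p arms and a grey line joining the arms of 1 hairpin. Levels run from 1.29 CPM for miR-487b-5p to 7665 CPM for miR-381-3p, and arms of 1 hairpin often lie far apart.

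The whole run took a similar share of the counts in each group. In wild type libraries the share ranged from 2.04% to 4.90%, with a median of 2.35% and a mean of 2.77% ± 0.890 (SD, n = 9). In transgenic vehicle libraries it ranged from 2.03% to 2.83%, with a median of 2.36% and a mean of 2.40% ± 0.313 (SD, n = 7). With Vorinostat it ranged from 1.94% to 3.60%, with a median of 2.45% and a mean of 2.67% ± 0.546 (SD, n = 10). The 3 groups overlapped almost fully, and the highest value was that of wild type replicate 1. Without that library the wild type mean was 2.502% ± 0.416 (SD, n = 8), and without replicate 8 the Vorinostat mean was 2.57% ± 0.465 (SD, n = 9). On lane L001 the wild type mean was 2.78% ± 1.095 (SD, n = 6). It was 2.22% ± 0.163 (SD, n = 3) in transgenic vehicle and 2.38% ± 0.106 (SD, n = 4) in Vorinostat libraries. Wild type replicate 1 was on that lane, where the medians in the same order were 2.29%, 2.26% and 2.36%. On lane L002, which held Vorinostat replicate 8, the wild type mean was 2.75% ± 0.413 (SD, n = 3). It was 2.53% ± 0.349 (SD, n = 4) in transgenic vehicle and 2.87% ± 0.641 (SD, n = 6) in Vorinostat libraries. In bulk tissue, fewer cells that express the run and less of its RNA per cell cannot be told apart.

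**Figure D2:**
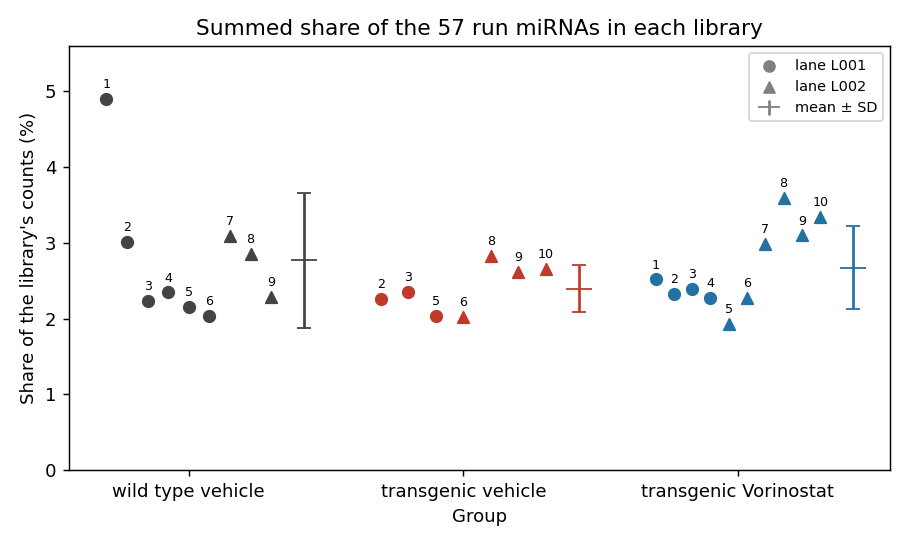
Share of each library's counts taken by the 57 miRNAs, in percent, for the 3 groups, with replicate numbers above the points, circles for lane L001, triangles for lane L002, and mean ± SD at the right of each group. The groups overlap, and wild type replicate 1 lies highest at 4.90%.

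The first comparison asked whether the run differed with the transgene, between vehicle-treated transgenic and wild type mice. By edgeR's quasi-likelihood test with Benjamini-Hochberg adjustment over 605 miRNAs, 0 of the 53 passed an adjusted p of 0.05, as did 0% of all miRNAs tested. At an unadjusted p under 0.05, 1 member passed, against 2.15% of all tested. DESeq2 also called 0, with 2 at an unadjusted p under 0.05, and limma voom called 0, with 0 at that p. The median log2 difference was 0.05 over the 53, beside 0.03 over all miRNAs tested. Differences ran from -1.02 for miR-679-5p to 0.49 for miR-376a-3p, with 31 above and 22 below 0, and 37 lay within 0.25 of 0. Without wild type replicate 1, which had 95.7 CPM of miR-679-5p against a wild type median of 8.57 CPM, they ran from -0.48 for miR-679-5p to 0.33 for miR-376a-3p. Then 18 were above and 35 below 0, so the balance of signs turned with that 1 library.

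The member with the smallest p on the lower side was miR-485-5p, for which the mRNA of the presynaptic vesicle protein SV2A is a known target. Its level ran from 336.9 to 4840 CPM in wild type libraries, with a median of 614 CPM, and from 329.9 to 726 CPM in transgenic vehicle libraries, with a median of 475 CPM. The ranges overlapped, 0 of 7 transgenic values lay above the wild type mean, and the wild type maximum was replicate 1. The log2 difference was -1.01 (SE 0.490, unadjusted p = 0.0484, edgeR adjusted p = 0.980). Without wild type replicate 1 it was -0.20 (SE 0.337), on lane L001 alone -1.53 (SE 0.712) and on lane L002 alone -0.24 (SE 0.432). On the higher side the smallest p was that of the scarce miR-299a-5p, at 0.35 (SE 0.299, edgeR adjusted p = 0.980), with a median of 3.78 CPM in wild type and 6.33 CPM in transgenic vehicle libraries.

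Of the 6 most abundant miRNAs, miR-381-3p, miR-379-5p, miR-541-5p and miR-409-3p had lower mean levels in transgenic than in wild type libraries, but none passed the test, the ranges overlapped and the differences shrank without 1 library. miR-381-3p ran from 4272 to 22965 CPM in wild type (median 6211 CPM) and from 4231 to 8335 CPM in transgenic vehicle libraries (median 5935 CPM). Its log2 difference was -0.40 (SE 0.330) with all libraries and -0.06 (SE 0.265) without wild type replicate 1. miR-379-5p, the first miRNA of the run, ran from 1886 to 13088 CPM (median 2667 CPM) in wild type and from 1768 to 4041 CPM (median 2753 CPM) in transgenic vehicle libraries. Its difference was -0.50 (SE 0.356) with all libraries and -0.07 (SE 0.270) without wild type replicate 1. miR-541-5p and miR-409-3p differed by -0.42 (SE 0.292) and -0.64 (SE 0.394) with all libraries, and by -0.20 and -0.29 without that one. miR-411-5p, whose seed is 1 base from that of miR-379-5p, differed by 0.09 (SE 0.181), from a wild type median of 1466 CPM and a transgenic median of 1400 CPM, and by -0.06 (SE 0.105) without that library. It was lowest in that library, at 406 CPM, where miR-381-3p and miR-379-5p were highest.

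Members known from neuronal work had differences within the range of the rest of the run, and wild type replicate 1 weighed on them too. miR-134-5p had medians of 135 CPM in wild type, 121.5 CPM in transgenic vehicle and 155 CPM in Vorinostat libraries, with a genotype difference of -0.18 (SE 0.234). miR-329-3p had medians of 55.5, 50.9 and 54.9 CPM in the same order and differed by 0.19 (SE 0.209). miR-495-3p, for which BDNF mRNA is a known target, had medians of 646, 570.1 and 672 CPM and differed by -0.04 (SE 0.217). miR-485-3p, the other arm of the miR-485 hairpin, had medians of 433.4, 418 and 403 CPM and differed by -0.41 (SE 0.288). Without wild type replicate 1 the differences were 0.0016 for miR-134-5p, 0.06 for miR-329-3p, -0.21 for miR-495-3p and -0.08 for miR-485-3p. The edgeR adjusted p was 0.980 or higher for each of these, which does not show that their levels are equal.

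The second comparison asked whether the run differed with Vorinostat in transgenic mice, and it used the same 7 transgenic vehicle libraries as the first. Again 0 of 53 passed in edgeR, beside 0% of all miRNAs tested, and 1 passed an unadjusted p of 0.05 against 3.47% of all tested. That fit did not use the replicate numbers shared by the transgenic groups, and a paired fit is given further below. DESeq2 called 0, with 0 at an unadjusted p under 0.05, and limma voom called 0, with 1 at that p. The median log2 difference was -0.01 over the 53 and -0.01 over all tested. Differences ran from -0.78 for miR-376a-3p to 0.85 for miR-679-5p, with 26 above and 27 below 0. With plain library totals in place of trimmed-mean factors, the median of all miRNAs tested shifted by -0.13, and that of the run was -0.13.

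The smallest p on the higher side was that of miR-543-3p, an abundant miRNA with no other arm on the list. It ran from 1587 to 2238 CPM in transgenic vehicle libraries (median 1826 CPM) and from 1987 to 3119 CPM with Vorinostat (median 2254 CPM). All 10 Vorinostat values lay above the vehicle mean of 1892 CPM, and the groups overlapped between 1987 and 2238 CPM. The log2 difference was 0.32 (SE 0.152, edgeR adjusted p = 0.836), 0.19 (SE 0.323) on lane L001 and 0.35 (SE 0.168) on lane L002. On the lower side it was miR-376a-3p, which ran from 21.4 to 121 CPM with vehicle (median 34.9 CPM) and from 12.1 to 46.1 CPM with Vorinostat (median 23.1 CPM). Its difference was -0.78 (SE 0.413, edgeR adjusted p = 0.836). Its neighbour miR-376b-3p, 1 base away in the seed, had medians of 208 and 171 CPM and differed by -0.32 (SE 0.289).

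In the third comparison, Vorinostat-treated transgenic against wild type vehicle libraries, 0 of 53 passed in edgeR beside 0% of all tested. At an unadjusted p under 0.05, 1 member passed against 3.14% of all; DESeq2 and limma voom each called 0, with 1 at an unadjusted p under 0.05. The median difference was 0.05 over the run and 0.01 over all tested, with a range from -0.44 to 0.44. The smallest p on the higher side was that of miR-134-3p, the minor arm of the miR-134 hairpin. Its median was 2.85 CPM in wild type and 4.27 CPM with Vorinostat, and it differed by 0.44 (SE 0.202, edgeR adjusted p = 0.9997). It had 0 reads in wild type replicate 1, where 3 counts would be 6.24 CPM, so that value does not limit its level. On the lower side it was miR-410-3p, the last miRNA of the run, with medians of 138.1 CPM in wild type and 129 CPM with Vorinostat and a difference of -0.27 (SE 0.176, edgeR adjusted p = 0.9997).

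The transgenic vehicle and Vorinostat libraries shared 7 replicate numbers, and libraries with the same number deviated together. In every pair but pair 5 they were also on the same lane, so number and lane cannot be told apart there. A fit on these 14 libraries with the number as a block, chosen after seeing the data, called 5 of 567 miRNAs (0.882%). One of the 5 belonged to the run, miR-379-5p. Its level with vehicle and with Vorinostat was 2068 and 2544 CPM in pair 2, 2753 and 3629.6 CPM in pair 3, and 1768 and 2247 CPM in pair 5. It was 2062 and 4155 CPM in pair 6, 4041 and 7299 CPM in pair 8, 4005 and 6096 CPM in pair 9, and 3988 and 5447 CPM in pair 10. The Vorinostat library was thus the higher one in 7 of 7 pairs, while across the groups the ranges overlapped widely. The log2 difference was 0.56 (SE 0.107, edgeR adjusted p = 0.0420), beside 0.49 (SE 0.349, edgeR adjusted p = 0.836) in the fit of all 26 libraries without the block. With 1 pair left out at a time, the log2 difference of miR-379-5p stayed between 0.503 (without pair 6) and 0.5996 (without pair 5). Whether it passed the threshold did depend on single pairs. The adjusted p in edgeR was 0.0840 without pair 2, 0.0994 without pair 6 and 0.0675 without pair 8. It was 0.133 without pair 9 and 0.133 without pair 10. It was 0.0325 without pair 3 and 0.0347 without pair 5, whose libraries came from different lanes. A block over all 26 libraries called 0 of the 53 in each comparison.

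In the same paired fit, 14 of the 53 (26.4%) had an unadjusted p under 0.05, beside 25.9% of all miRNAs tested, so the run did not stand out by its count. Of the 14, 8 were higher with Vorinostat and 6 lower, beside 11.3% and 14.6% of all tested. By direction alone, 6 members were higher with Vorinostat in all 7 pairs, where 7.60% of all tested were: miR-379-5p, miR-679-5p, miR-543-3p, miR-134-5p, miR-485-5p and miR-409-3p. miR-409-3p had a log2 difference of 0.77 (SE 0.168, edgeR adjusted p = 0.0533) and miR-134-5p of 0.29 (SE 0.114, edgeR adjusted p = 0.137). Lower in all 7 pairs were miR-376a-5p, miR-487b-5p and miR-369-3p, where 4.79% of all tested were. Of these, miR-487b-5p was the scarcest member tested, with at most 2.11 CPM in these pairs and 0 CPM with Vorinostat in pair 8. miR-369-3p went from 264 to 163 CPM in pair 2, 216 to 181 CPM in pair 3, 269 to 264 CPM in pair 5 and 243 to 127.1 CPM in pair 6. In pairs 8, 9 and 10, where it was scarcer, it went from 69.0 to 13.04 CPM, 74.8 to 34.6 CPM and 72.0 to 24.6 CPM. Its log2 difference was -0.95 (SE 0.238, edgeR adjusted p = 0.0557).

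**Figure D3:**
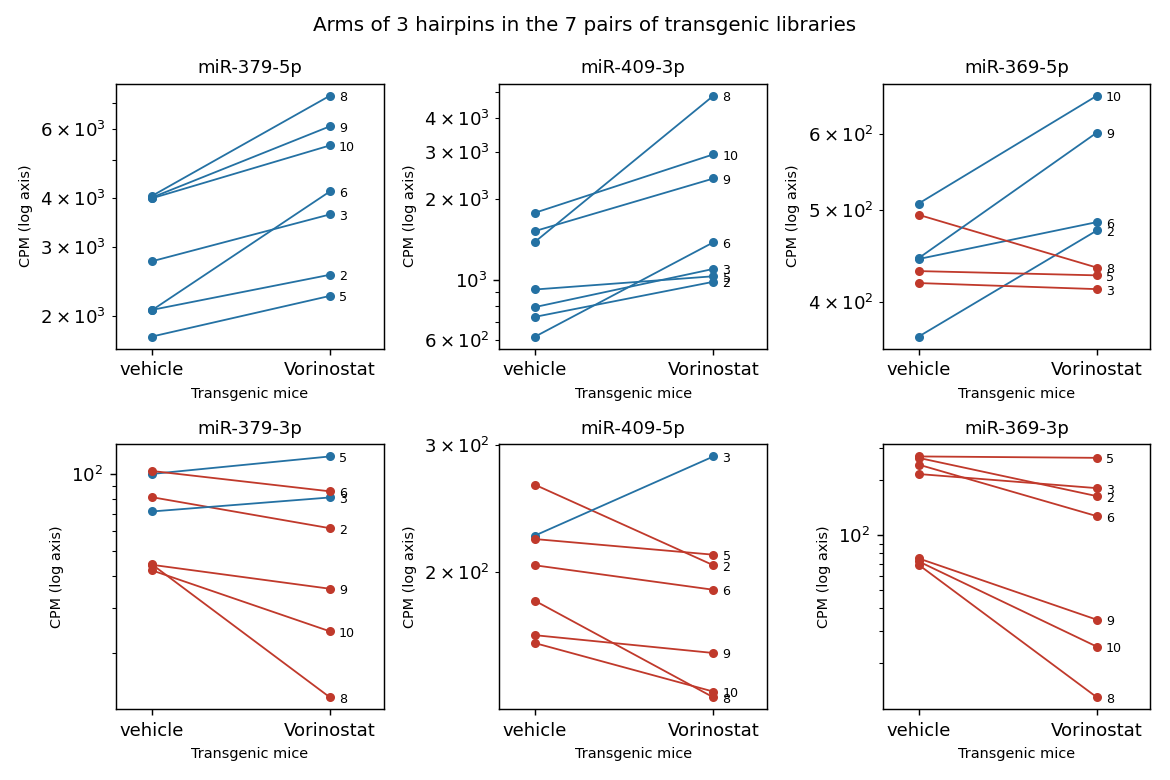
CPM (log axes, scaled per panel) of the 5p and 3p arms of 3 hairpins in the 7 numbered pairs of transgenic libraries, vehicle at the left and Vorinostat at the right, with blue lines for pairs where Vorinostat is higher and red where it is lower. miR-379-5p and miR-409-3p are higher with Vorinostat in 7 of 7 pairs and miR-369-3p is lower in 7 of 7, while their other arms are mixed.

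Across libraries, the run split into miRNAs that varied with miR-381-3p and miRNAs that varied against it. The following values are Spearman correlations of log2 CPM over the 26 libraries, given as a description; all miRNAs share the libraries and their totals, and those named below beyond the abundant and neuronal ones were chosen after their values were seen. Of the 52 other tested members, 12 had a correlation over 0.5, 24 one under -0.5 and 16 lay between. Without wild type replicate 1 and Vorinostat replicate 8 the first counts were 13 and 24. Among all miRNAs tested, 28.1% were over 0.5 and 31.0% under -0.5, so a split of this kind was not limited to the run. The median over all pairs of members was 0.07, from -0.96 to 0.96, and 46.1% of pairs were negative.

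The miRNAs that varied with miR-381-3p included miR-541-5p (0.95), miR-666-5p (0.95), miR-679-5p (0.94), miR-379-5p (0.90), miR-134-5p (0.86) and miR-409-3p (0.80). Those that varied against it included miR-369-3p (-0.95), miR-379-3p (-0.94), miR-154-3p (-0.93) and miR-411-3p (-0.85). The 2 miRNAs with the shared seed AUGUAAC were thus both in the second set. miR-154-3p and miR-369-3p, 1 base apart in the seed, were also both in it. miR-300-3p, 1 base from miR-381-3p in the seed, had 0.68, while miR-411-5p, 1 base from miR-379-5p in the seed, had -0.42. The signs held inside every group: all 12 of the first set were positive and all 24 of the second negative within the 9 wild type, the 7 transgenic vehicle and the 10 Vorinostat libraries taken alone. They also held on each lane, with median correlations of 0.42 and -0.49 on lane L001 and 0.90 and -0.78 on lane L002. These sets were chosen on the same libraries, so that agreement is a description of how the split is spread and not a test.

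In wild type replicate 1 the contrast was extreme. miR-369-3p was at 4.16 CPM there, against a wild type median of 174 CPM, and miR-379-3p at 8.32 CPM, against 64.3 CPM, while miR-381-3p was at 22965 CPM. The library had 0 reads of 11 tested members, but at its depth 3 counts are 6.24 CPM, and 8 of the 11 had a median under that in the other wild type libraries. Other libraries showed the same contrast at a smaller scale: miR-369-3p was at 13.04 CPM in Vorinostat replicate 8, where miR-381-3p was at 13334 CPM, and at 264 CPM in Vorinostat replicate 5, where miR-381-3p was lowest at 3229 CPM. Some other measures varied with it and some did not. Base content was 1 of them: the correlation of a member's GC content with its correlation to miR-381-3p was 0.43 over 50 members, and 0.37 over the 515 tested miRNAs with a sequence. The median GC content was 50.0% in the first set (n = 12) and 44.2% in the second (n = 22). The summed level of the microglia and leukocyte markers had a correlation of -0.88 with miR-381-3p, with ranges of 2.08 to 33.3 CPM in wild type, 19.6 to 40.5 CPM in transgenic vehicle and 15.02 to 40.4 CPM in Vorinostat libraries. The 2.08 CPM was that of wild type replicate 1 and lies under its 6.24 CPM for 3 counts, so depth limits it. Of these 3 markers, 2 passed the filter on low counts. The correlation with miR-381-3p was 0.68 for endothelial markers and 0.61 for thalamus and sensory markers. The latter had highest values of 1329.6 CPM in wild type, 140.5 CPM in transgenic vehicle and 510.6 CPM in Vorinostat libraries. Their medians in the same order were 119.4, 85.1 and 138.1 CPM. The correlation was 0.35 for neurons, 0.05 for erythrocytes, -0.03 for choroid plexus and -0.0010 for oligodendrocytes. Library totals had a correlation of -0.23 with miR-381-3p, and -0.02 without the 2 libraries. The part of these measures in the split was not tested.

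**Figure D4:**
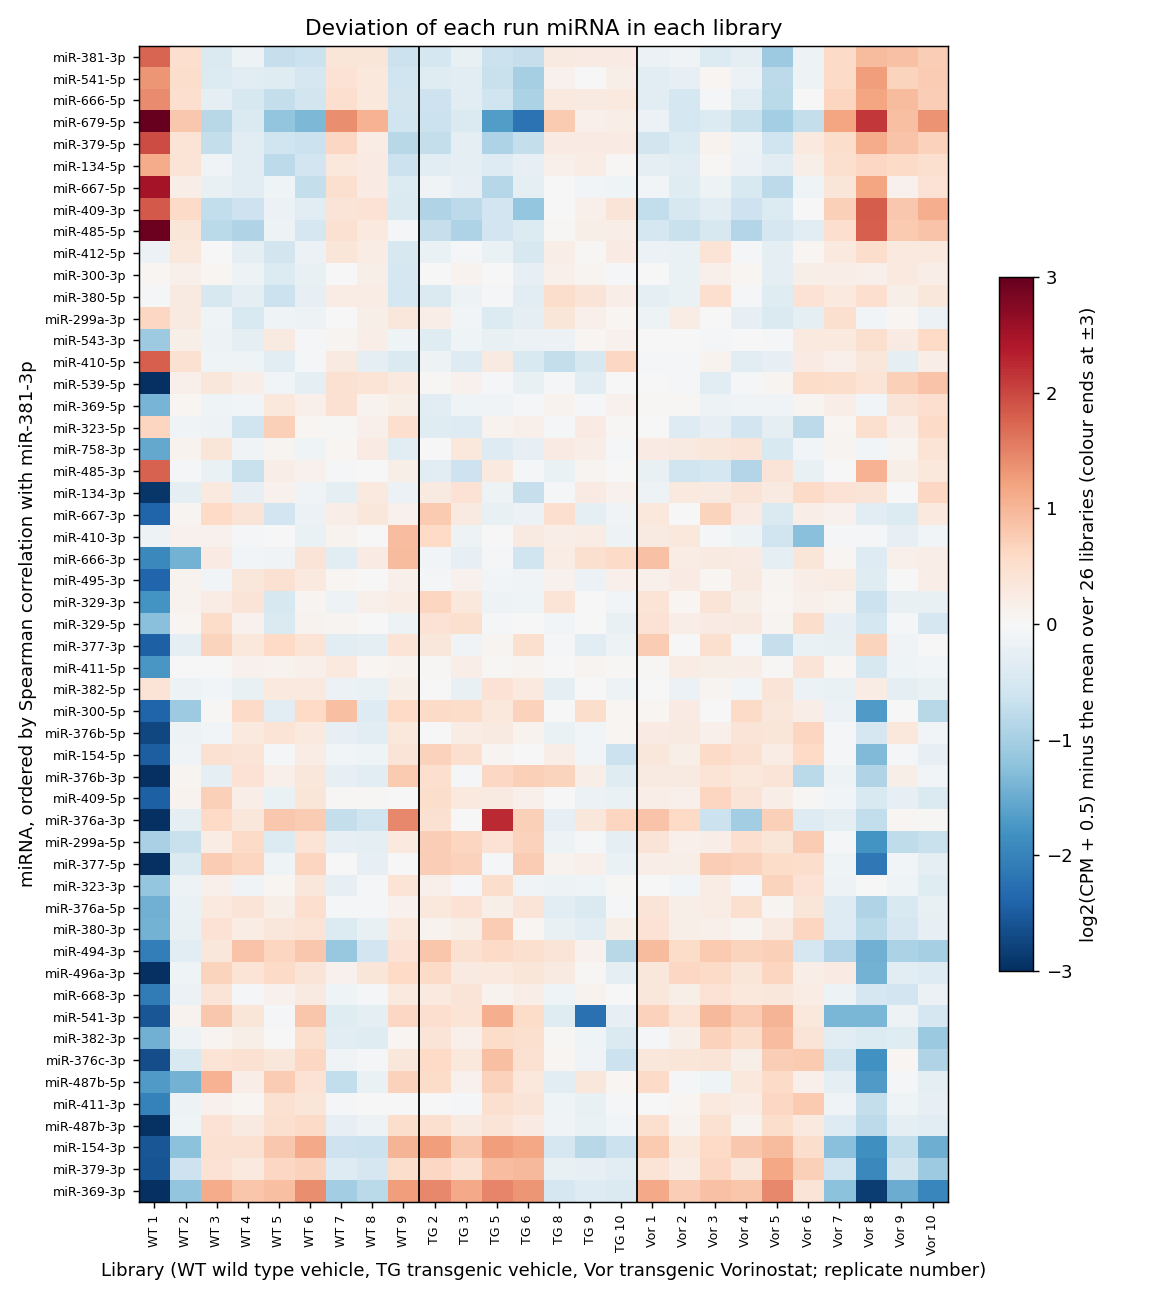
log2(CPM + 0.5) minus the mean over 26 libraries for the 53 tested miRNAs (rows, ordered by their correlation with miR-381-3p) in each library (columns, by group and replicate number), red above and blue below the mean, with colours ending at 3. Rows at the top and bottom have opposite signs in the same libraries in all 3 groups, most strongly in wild type replicate 1 and Vorinostat replicate 8.

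The arms of a hairpin could lie on the same side or on opposite sides of this split. Of 21 hairpins with both arms tested, 6 had 1 arm in each set, 5 had both arms in the same set and 10 had at least 1 arm between. A ratio of 5p to 3p reads was computed for the 17 hairpins with at least 20 reads of both arms together in every library. In 7 of them the scarcer arm had fewer than 3 reads in some library, so their ratio there is a bound set by depth. Reads were mostly 5p for 11 of them and mostly 3p for 6, and 8 had over 90% of their reads on 1 arm. The hairpin of miR-379 gave 98.0% of its reads from the 5p arm, that of miR-541 gave 99.9%, that of miR-409 gave 13.9% and that of miR-485 gave 59.0%. The levels of the arms were negatively correlated over the 26 libraries for 11 of 17 hairpins, and for 9 without the 2 libraries that stood apart, where 46.1% of all pairs of members were negative. Among the 10 hairpins with at least 3 reads of each arm in every library, a limit chosen after seeing the data, 5 were negative. The correlation was under -0.5 for 6, with -0.81 for miR-379, -0.81 for miR-409 and -0.79 for miR-541; for miR-381 it was -0.67, but miR-381-5p was too scarce to be tested and had 0 reads in 6 libraries. It was over 0.5 for 3, with 0.67 for miR-485, 0.66 for miR-329 and 0.56 for miR-411.

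The arm ratio of a hairpin differed between libraries. On the log2 scale, with 0.5 read added to each arm, its range over libraries had a median of 2.38 for the 10 hairpins with at least 3 reads of each arm throughout, from 0.93 for miR-411 to 6.31 for miR-379. Without the 2 libraries that stood apart, 14 hairpins met that limit, with a median range of 1.99. For miR-379 the range was 3.67 without the 2 libraries that stood apart. With all libraries its log2 ratio ran from 4.14 in transgenic vehicle replicate 5 to 10.4 in wild type replicate 1. Its mean was 6.18 ± 1.90 (SD, n = 9) in wild type, 5.43 ± 1.09 (SD, n = 7) in transgenic vehicle and 6.27 ± 1.502 (SD, n = 10) in Vorinostat libraries, with overlapping ranges. In the 7 pairs the ratio was higher with Vorinostat in every pair for miR-379 and for miR-369, and lower in every pair for miR-409. For miR-411 the ratio was higher with Vorinostat in 3 of 7 pairs.

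The authors' deposited normalized log2 values gave larger group differences than the counts. They hold 55 of the 57 miRNAs and were made by a method not given in the sources used here, so the p-values below take them as they stand. Whether that method used the groups is not stated, and p-values from values adjusted with the groups known would be too small. By limma's test on these values, a choice made after seeing the data, 41 of the 55 passed in the genotype comparison (74.5%), beside 54.5% of the 674 miRNAs in the table. Of these, 30 were higher in transgenic vehicle libraries and 11 lower, beside 34.1% and 20.3% of all. In the Vorinostat comparison 36 of 55 passed (65.5%), beside 53.7% of all, with 8 higher and 28 lower, beside 16.5% and 37.2%. In the third comparison 0 of 55 passed, with 0 higher and 0 lower, beside 0.890% of all, 0.148% higher and 0.742% lower. The median difference was 0.51 for genotype, beside 0.19 over all, and -0.46 for Vorinostat, beside -0.24 over all. The transgenic vehicle libraries enter both of these comparisons, so opposite signs in them are not independent.

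Most of the called miRNAs had the same sign on both scales but different amounts. In the authors' values miR-381-3p differed by -0.83 (SE 0.186, limma adjusted p = 0.00263) for genotype and 0.75 (SE 0.182, limma adjusted p = 0.00287) for Vorinostat. miR-379-5p differed by -0.83 (SE 0.219) and 0.90 (SE 0.215), and its other arm miR-379-3p by 1.301 (SE 0.332) and -1.40 (SE 0.324). The largest of the run were those of miR-369-3p, 2.02 (SE 0.548, limma adjusted p = 0.00552) and -2.25 (SE 0.536, limma adjusted p = 0.00273). miR-485-5p differed by -0.80 (limma adjusted p = 0.0310) and 0.68 (limma adjusted p = 0.0579), miR-134-5p by -0.52 and 0.44. miR-410-3p differed by 0.09 (limma adjusted p = 0.701) and -0.57 (limma adjusted p = 0.0122). miR-543-3p went the other way than in the counts, with 0.32 (limma adjusted p = 0.0438) for genotype and -0.10 (limma adjusted p = 0.522) for Vorinostat.

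In the comparisons that hold the transgenic vehicle libraries, the direction in these values followed the split across libraries. Over 52 members, the correlation with miR-381-3p in the counts had a Spearman correlation of -0.90 with the genotype difference in the authors' values, and of -0.66 with that in edgeR. For the Vorinostat difference it was 0.92 in the authors' values and 0.76 in edgeR, while for Vorinostat against wild type it was 0.13 and 0.16. These are descriptions across miRNAs of 1 set of libraries and carry no p. Of 39 tested members called for genotype in the authors' values, 33 had the same sign in edgeR, and for Vorinostat 29 of 34 did. The median absolute genotype difference was 0.63 in the authors' values and 0.17 in edgeR, and the median SD within groups was 0.44 and 0.61 on the log2 scale. For Vorinostat against wild type the median absolute difference was 0.112 in the authors' values and 0.108 in edgeR, so the larger distances were found in the comparisons with the transgenic vehicle libraries.

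**Figure D5:**
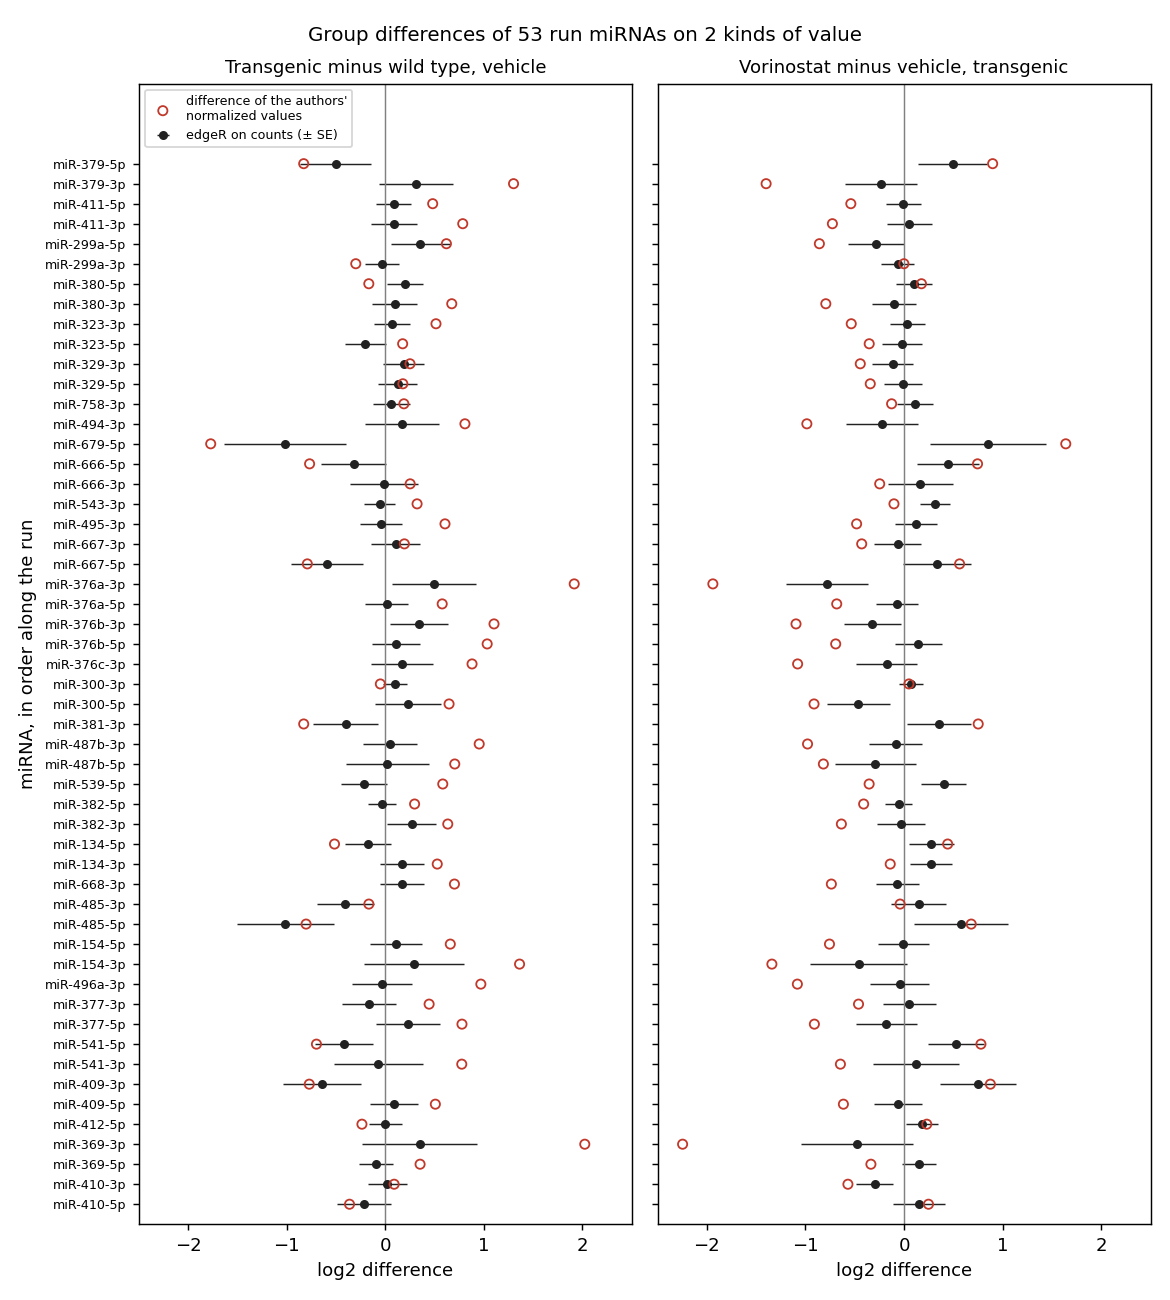
log2 differences of the 53 tested miRNAs in order along the run, transgenic minus wild type at the left and Vorinostat minus vehicle at the right, with filled points for edgeR on counts (bars are 1 SE) and open red circles for the authors' normalized values. Filled points lie between -1.02 and 0.85, and open circles often lie further from 0; of those called, 33 of 39 for genotype and 29 of 34 for Vorinostat are on the same side of 0 as the filled point.

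The authors' module table placed the run in more than 1 co-expression module. Of the 55 members in it, 36 were assigned to the module named turquoise (65.5%, beside 59.9% of all 674 miRNAs) and 13 to blue (23.6%, beside 29.2%). Brown held 4, green 2 and yellow 0. Blue held miR-381-3p, miR-379-5p, miR-541-5p, miR-409-3p, miR-134-5p and miR-485-5p, and turquoise held miR-379-3p, miR-369-3p, miR-411-5p and miR-543-3p. The median correlation with miR-381-3p was 0.81 over the 13 blue members and -0.68 over the 34 tested turquoise members. The modules were built on these libraries and give no independent support for the split.

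Other miRNAs of the Dlk1-Dio3 domain did not pass edgeR's test either. Of 17 tested in the group antisense to or near Rtl1, 0 passed in edgeR in any comparison, with 1, 0 and 0 at an unadjusted p under 0.05, and median differences of 0.03 between genotypes, -0.06 with the drug and -0.01 in the third comparison. The most abundant of them, miR-127-3p, at 52216 CPM, differed by -0.64 (SE 0.385) for genotype and 0.49 (SE 0.376) for Vorinostat. Without wild type replicate 1, where it was at 222291 CPM, the genotype difference was -0.06 (SE 0.259). Of 12 tested near Meg3, Rian and Dio3, 0 passed and 0 had an unadjusted p under 0.05, with medians of -0.14, 0.23 and 0.04. Of 7 other arms and hairpins within the run, 0 passed and 0 had an unadjusted p under 0.05, with medians of 0.11, 0.22 and 0.12. By limma on the authors' values, 34.1% of all 674 miRNAs were called higher and 20.3% lower for genotype. For Vorinostat these shares were 16.5% and 37.2%. Beside them, 6 of 17 in the Rtl1 group were called higher and 6 lower for genotype, and 4 higher and 8 lower for Vorinostat. In the Meg3, Rian and Dio3 group, 1 of 12 was called higher and 7 lower for genotype, and 6 higher and 2 lower for Vorinostat. Of 10 other arms of the run in those values, 3 were called higher and 0 lower for genotype, and 1 higher and 2 lower for Vorinostat.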

How the data were processed

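For the 26 small RNA libraries the authors deposited unnormalized read counts of each mature miRNA. Library preparation used Illumina's TruSeq kit for small RNA, sequenced in single reads of 50 bp, per the labels' protocols. FastQC 0.11.5 and mm10 appear in the submitters' processing notes, with aligner, annotation and counting settings not given in the sources used here. Deposited by the authors as well were log2 normalized values for 674 miRNAs, and module membership scores with p-values, of which the p-values were not used.

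Counts were tested with edgeR 4.0.16 (quasi-likelihood, TMM factors, filterByExpr with a minimum count of 10 and total of 15, 605 miRNAs left) in R 4.3.3, 1 model of 3 groups without covariates, two-sided, with Benjamini-Hochberg adjusted p under 0.05 as threshold. The code was tested on simulated data. Alternatives were DESeq2 1.42.0, limma 3.58.1 with voom, other factors and filters, lanes, left-out libraries and a replicate block. Depth was 585188 to 24767468 counts per library; it limits scarce miRNAs, while for abundant ones the spread between libraries sets the precision.

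Replicate numbers were checked by correlating deviations from group means. All 7 pairs of transgenic vehicle and Vorinostat libraries had a correlation from 0.257 to 0.639, so they were treated as paired in the added fit of these libraries. The main fit did not use the pairs. Wild type numbers gave -0.499 to 0.513 (6 pairs with transgenic vehicle) and -0.582 to 0.626 (9 pairs with Vorinostat), so no paired fit was made with them. The highest of these were about as high as those of the transgenic pairs, so such a correlation does not show what a number marks. The labels do not state it either. Libraries of the transgenic pairs were on the same lane except in pair 5, so a shared number and a shared lane cannot be told apart.

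Members, lists and tests were chosen with earlier results of these data known. Singly described miRNAs were those past the threshold, the 6 most abundant, the smallest p on each side of each comparison, and 10 known from neuronal work or at the ends of the run; others stand for an arm, a seed or an end of a range.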

Additional observations from a re-analysis of the deposited data

Results flagged for a closer look

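In each group, the highest or lowest library of the summed share and of the 16 singly described miRNAs was set against the others by Dixon's test at the 95% level. Of 51 groups tested, 19 had such a library, where chance flags about 1 in 20 groups. Wild type replicate 1, the shallowest library, accounted for 12 of them. It lay above the other wild type libraries in the share of the run (4.90%), miR-381-3p (22965 CPM), miR-379-5p (13088 CPM), miR-541-5p (7154 CPM), miR-409-3p (4867 CPM), miR-485-5p (4840 CPM), miR-485-3p (1481.5 CPM) and miR-134-5p (314 CPM). It lay below them in miR-543-3p (968 CPM), miR-411-5p (406 CPM) and miR-495-3p (114 CPM). The last of the 12 was miR-134-3p, with 0 reads there, but 3 counts in that library are 6.24 CPM, above every other wild type value, so depth alone can give that 0.

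Vorinostat replicate 8 lay above its group in miR-409-3p (4857 CPM), miR-485-5p (2188 CPM) and miR-485-3p (891 CPM) and below it in miR-495-3p (467 CPM). In transgenic vehicle libraries, replicate 3 was high in miR-411-5p (1565 CPM) and replicate 5 in miR-376a-3p (121 CPM). Wild type replicate 9 was high in miR-410-3p (260.0 CPM). The flags of 1 library are not independent of each other, since the miRNAs vary together.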

How the results depend on the processing

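The absence of calls in edgeR held in all 3 comparisons under DESeq2, limma voom, other scaling factors, other filters, each lane and each left-out library. The calls that did appear came from 2 alternatives added after seeing the data. The authors' normalized values gave 41 calls for genotype (74.5%, beside 54.5% of all) with a median of 0.51. For Vorinostat they gave 36 calls (65.5%, beside 53.7% of all) with a median of -0.46. The fit of the 7 pairs with the replicate block gave 1 call, beside 5 among all 567 miRNAs tested. Leaving out 1 pair gave 0 to 4 calls in the run. Without pair 3 the 4 were miR-379-5p, miR-679-5p, miR-409-3p and miR-369-3p, beside 29 calls among all 563 tested. Without pair 5 the 4 were miR-379-5p, miR-541-5p, miR-409-3p and miR-369-3p, beside 15 calls among all 565 tested. The block over all 26 libraries changed no call, with medians of 0.04, 0.03 and 0.07 in the 3 comparisons. Without miR-381-3p the share was 1.97% in wild type, 1.74% in transgenic vehicle and 1.93% in Vorinostat libraries, and 10 hairpins had an arm ratio at 100 reads of both arms together, as did 10 at 3 reads of each arm.

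The differences of single members that changed sign by over 1 SE were all uncalled in edgeR, and the cause was not tested. Smaller changes of sign are not listed. The fit of lane L001 held wild type replicate 1 and that of lane L002 held Vorinostat replicate 8. A change between lanes therefore cannot be told apart from a change with these libraries. For genotype, lane L002 gave -0.11 for miR-411-5p, -0.012 for miR-376a-3p, -0.28 for miR-410-3p and -0.031 for miR-329-3p, and the authors' values gave 0.32 for miR-543-3p and 0.61 for miR-495-3p. For Vorinostat, lane L001 gave -0.047 for miR-134-3p and -0.39 for miR-485-3p, and the authors' values gave -0.10 for miR-543-3p, -0.14 for miR-134-3p and -0.48 for miR-495-3p. For Vorinostat against wild type, lane L001 gave -0.35 for miR-541-5p, -0.89 for miR-409-3p, 0.12 for miR-410-3p and -0.27 for miR-134-5p. Lane L002 gave 0.34 for miR-381-3p, 0.42 for miR-379-5p, -0.19 for miR-411-5p, 0.45 for miR-485-5p, 0.28 for miR-485-3p, -0.21 for miR-329-3p and -0.35 for miR-376b-3p. The authors' values gave -0.24 for miR-299a-5p and -0.19 for miR-329-3p. Leaving out 1 library gave -0.15 (without Vorinostat replicate 8) to 0.28 (without wild type replicate 1) for miR-381-3p, and between the same libraries -0.14 to 0.39 for miR-379-5p, -0.75 to 0.35 for miR-485-5p and -0.42 to 0.048 for miR-485-3p. Without both, miR-485-5p was at 0.046. Depth limits the scarce members most: in wild type replicate 1 a count of 3 is 6.24 CPM, beside at most 0.954 CPM elsewhere.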
